A study of Mus musculus with 6 samples.

Results

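The genes described here are 9 matricellular glycoproteins of stroma and bone and the matrix glycoprotein fibronectin. They are Sparc, Sparcl1 and Smoc1, Postn, Thbs1, Thbs2 and Thbs4, Tnc and Tnn, and Fn1. They were found by their gene name among the non-control probes of 6 Agilent arrays, and 21 of the 56605 non-control probes carried such a name. RNA came from bone marrow stromal cells of 3 NONMMUT002667-KO samples, from mice that lack the long non-coding RNA NONMMUT002667 (KO), and of 3 samples from wildtype mice (WT). All samples are labelled male, and strain and age are not given in the sources used here. Cells of crushed, collagenase-digested femurs were sorted for Sca-1 and CD29 and against CD45 and CD11b, then grown to the first passage. Each RNA sample was labelled with Cy3 and hybridised alone to 1 array. Whether a sample is 1 animal or a pool is not given, and the p-values cover the spread between the 6 samples alone.

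Matricellular proteins are secreted into the extracellular matrix but act mostly as regulators of how cells attach to it, rather than as its load-bearing fibres. They bind integrins, collagens and growth factors, and many are made strongly in developing bone, in tendon and in healing tissue. SPARC (osteonectin) binds collagen and mineral and is one of the abundant non-collagenous proteins of bone. Fibronectin forms the early fibrillar network on which collagens and several matricellular proteins are laid down. In bone marrow cultures these genes mark the stromal and osteoblast lineage, but macrophages also make some of them, such as thrombospondin-1 and fibronectin.

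Some facts of the arrays bear on every value below. All 6 arrays lay on 1 slide and were scanned in 1 scan, with the KO samples in the slide's row 2 and the WT samples in its row 1, so row and genotype cannot be told apart. The share of spots well above background ran from 49.0% to 53.02% on the KO arrays, against 54.3% to 56.7% on the WT arrays. The arrays' number limits the precision. No probe carried a NONMMUT name, so the knockout was not checked on its target. KO replicate 1 and WT replicate 3 alone had Xist, an RNA made from the inactive X of females, well above background (-0.36 and -0.53), and they alone lacked such a signal for the Y-linked Eif2s3y, which goes against their label as male. On all 6 arrays, each of 15 macrophage markers gave a signal well above background. Ptprc (CD45) and Itgam (CD11b), which had been sorted against, averaged 3.52 ± 0.22 and 4.14 ± 0.10 in KO and 3.32 ± 0.10 and 4.02 ± 0.14 in WT, and Ly6a (Sca-1) 3.40 ± 0.27 in KO and 3.48 ± 0.47 in WT (SD, n = 3 each). Of 11 stromal markers, 9 to 10 were well above background on the KO arrays and 11 on the WT arrays. In such bulk samples, fewer cells of a type and less RNA per cell cannot be told apart.

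Probes are numbered here from the 3′ end of each gene, so probe 1 lies nearest to it. All are 60-base oligonucleotides, and the files give positions shorter than that for Tnn probe 1 and Tnc probe 1. Of the 21, the 5 below cover more genomic bases than they have letters, so each of them reads across at least 1 splice junction and cannot match unspliced RNA in full. They are printed 5′ to 3′ as designed, since the results on Sparc, Fn1 and Thbs2 turn on them and that on Tnc serves as a comparison.
Sparc probe 2: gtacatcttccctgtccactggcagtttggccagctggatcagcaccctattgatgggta
Fn1 probe 2: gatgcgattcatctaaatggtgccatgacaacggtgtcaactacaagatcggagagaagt
Fn1 probe 4: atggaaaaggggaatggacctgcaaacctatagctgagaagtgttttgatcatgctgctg
Thbs2 probe 1: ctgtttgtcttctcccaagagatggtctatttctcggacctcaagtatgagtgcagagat
Tnc probe 2: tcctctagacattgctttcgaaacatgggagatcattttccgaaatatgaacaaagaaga
On mouse build mm9, all on the minus strand, they lie at chr11:55209449-55212106 (Sparc), chr1:71637422-71639659 and chr1:71694694-71695800 (Fn1), chr17:14804526-14805789 (Thbs2) and chr4:63674248-63675011 (Tnc). Each can be read in at least 1 frame without a stop codon. So can Fn1 probe 1 and Thbs1 probe 1, among others, so this does not set the 5 apart.

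Values are log2 signals with the 75th percentile of their own array set to 0, so a difference of 1 is a 2-fold difference in signal. Signals of different probes depend on the probes and are not compared as amounts of RNA. Of the 21 probes, 19 from 9 genes were tested, because they were well above background on all arrays of at least 1 group. None of the 19 passed limma at an adjusted p of 0.05 over all 28606 tested probes, of which 0.0594% passed. The smallest adjusted p was 0.0991, for Fn1 probe 2. At an unadjusted limma p under 0.05, 4 probes were lower in KO (Sparc probe 2, Thbs2, and Fn1 probes 2 and 4), against 7.28% of all tested probes. At that p, 1 was higher (the Smoc1 probe), against 8.24% of all. The 3 KO arrays all lay below the 3 WT arrays for 5 of the 19 probes, against 9.57% of all tested probes, and all above them for 2, against 12.6%. The median log2 difference was -0.11 over the 19 probes and 0.02 over all tested probes. Of the 19, 14 had a negative difference, as 43.8% of all tested probes did. By each gene's brightest probe, 6 of the 9 tested genes had a negative difference, as 44.2% of all 15371 tested genes did. At an unadjusted limma p under 0.05, these probes gave 1 lower gene (Thbs2) and 1 higher (Smoc1). The shares over all genes were 8.03% and 6.94%. The probe counts above are not counts of separate genes, since 2 of the 4 lower probes are from Fn1.

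**Figure D1:**
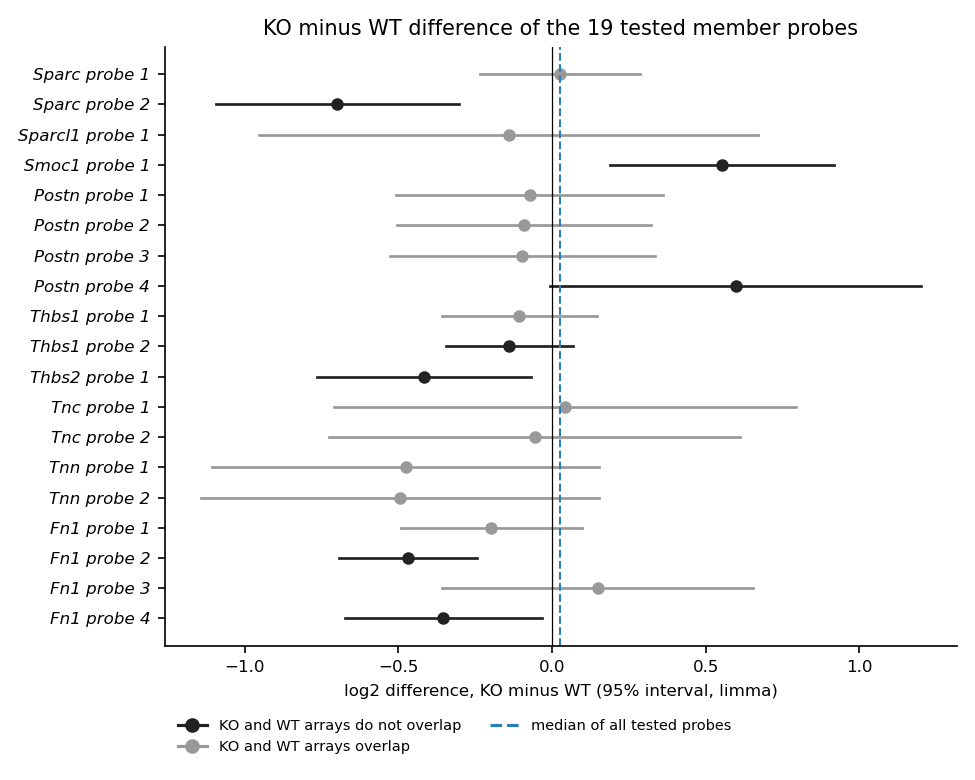
Log2 difference, KO minus WT, of each of the 19 tested probes (x axis), with the 95% interval from limma. Black marks the 7 probes whose KO and WT arrays do not overlap, grey the others, and the dashed line the median of all tested probes (0.02). Sparc probe 2 (-0.70) and Smoc1 (0.55) lie at opposite sides, and Sparc probe 1 (0.03) lies near 0.

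The 2 tested probes of Sparc differed from each other. Probe 2, the junction-spanning oligonucleotide printed above, was lower in KO on every array. It read 7.08, 6.49 and 7.05 on the KO arrays, against 7.55, 7.52 and 7.64 on the WT arrays. The SD was 0.33 in KO and 0.06 in WT, and KO replicate 2 was the lowest of all 6. The difference was -0.70 (SE 0.17, 95% interval -1.09 to -0.30), a signal 1.62-fold lower in KO, and it did not pass (limma adjusted p = 0.132). Probe 1, whose position starts 510 genomic bases further 3′ (chr11:55208939-55208998, mm9), read 8.89, 8.54 and 8.76 on the KO arrays, against 8.66, 8.65 and 8.80 on the WT arrays. The groups overlapped, and the difference was 0.03 (SE 0.11, 95% interval -0.23 to 0.29; limma adjusted p = 0.938), with a negative sign under normexp and quantile normalization, under median centring and in the deposited table. By mean signal, probe 1 ranked 3 of the 28606 tested probes and probe 2 ranked 208. No member probe was marked as saturated on any array, and whether the brightest signals still rise in proportion to the RNA was not tested. A further Sparc probe, for a transcript listed only by Ensembl, was well above background on WT replicate 3 alone and was not tested.

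The other members related to SPARC were near the lower end of detection. Smoc1, a secreted calcium-binding protein that antagonises BMP signalling in frog embryos, was the member with the clearest higher values. It read -2.39, -1.87 and -2.06 on the KO arrays, against -2.84, -2.54 and -2.59 on the WT arrays. All KO values lay above all WT values, and in each group replicate 1 was lowest. The difference was 0.55 (SE 0.15, 95% interval 0.19 to 0.92), a signal 1.47-fold higher in KO that did not pass (limma adjusted p = 0.175). It was 0.72 without the 2 arrays with Xist signal and 0.33 with normexp and quantile normalization, which moves it by over 1.5 times. Without the filter on dim probes, the median difference over all 56605 probes was 0.13. Of the probes at an unadjusted limma p under 0.05 in that setting, 12.1% were negative. The dimmest signal well above background was also higher on the KO arrays (-4.15 to -3.60) than on the WT arrays (-4.62 to -4.41). The part of this shift in the Smoc1 values was not tested. Sparcl1 (hevin), a SPARC relative known from brain and vessels, was the 1 member printed on the array 10 times over. Its mean signal was -4.14, -3.00 and -3.44 on the KO arrays, against -3.30, -2.96 and -3.90 on the WT arrays. The SD over its spots within an array was 0.12 to 0.29, so the arrays of 1 group differed by more than the spots of 1 array. On KO replicate 1, 4 of its 10 spots were well above background and the probe was taken as not above it. The groups overlapped throughout (difference -0.14, SE 0.34, 95% interval -0.95 to 0.67; limma adjusted p = 0.888).

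**Figure D2:**
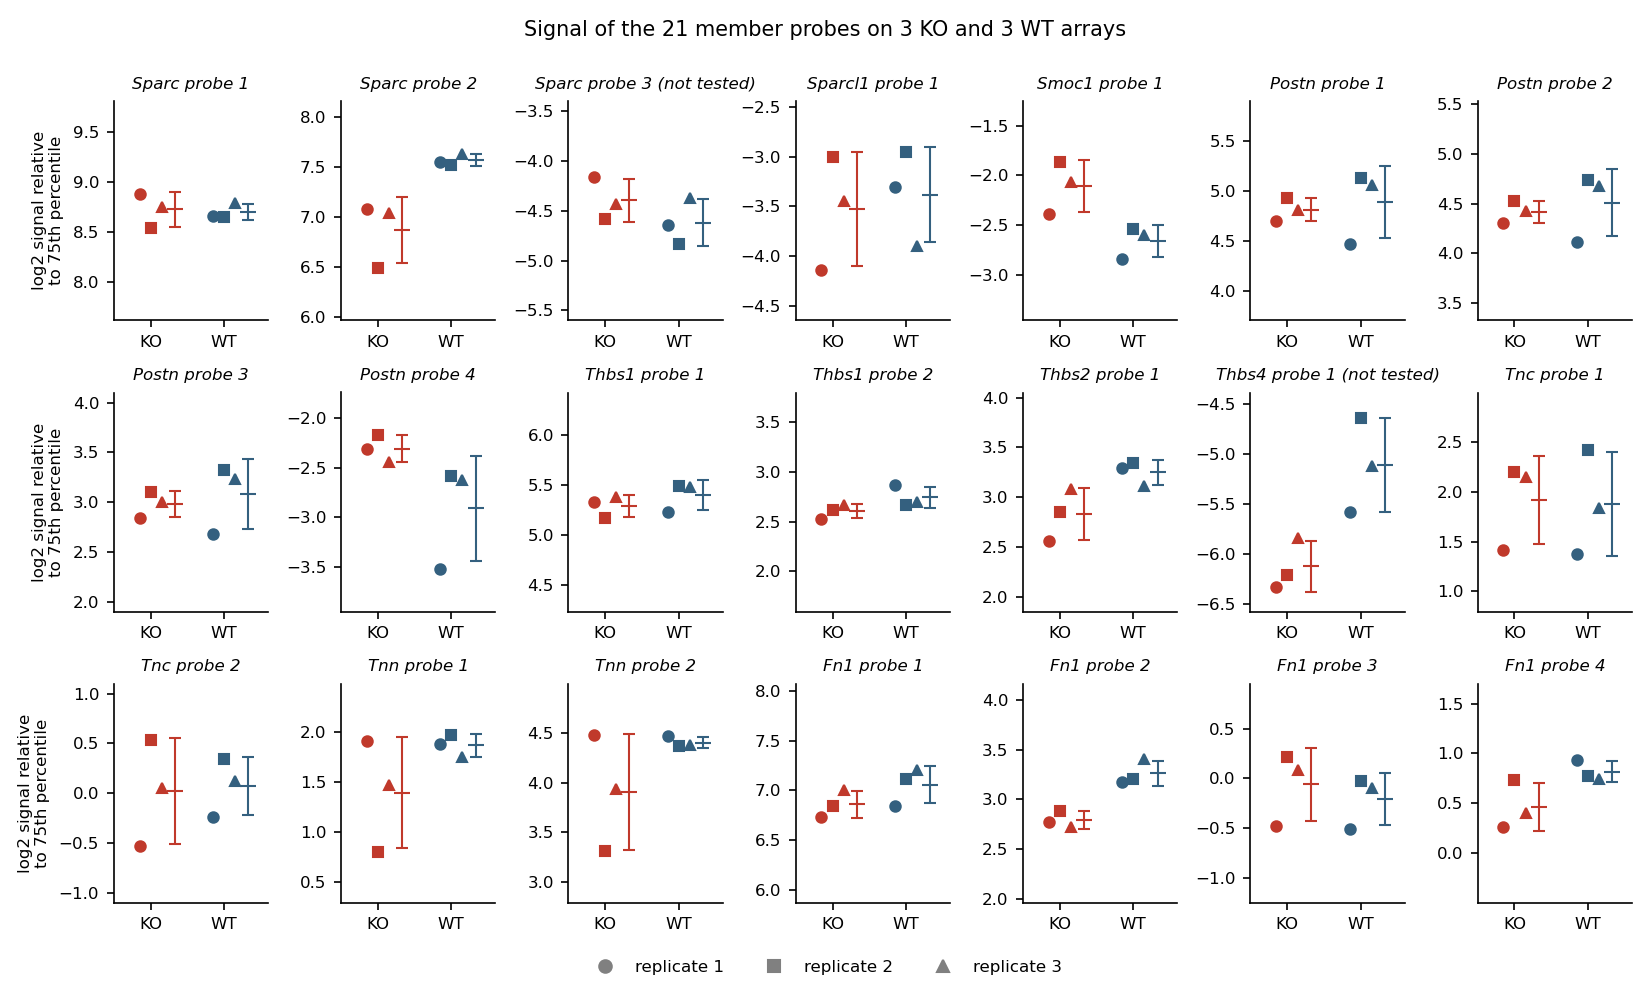
Log2 signal relative to the array's 75th percentile (y axis) of each of the 21 probes on the 3 KO (red, left) and 3 WT arrays (blue, right), with mean and SD beside the points. Each panel spans the same range of 2.2 log2 units, and the marker gives the replicate number. KO values lie below the WT values for Sparc probe 2 and Fn1 probes 2 and 4, above them for Smoc1, and spread from level with WT to far below it for Tnn.

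Postn encodes periostin, an adhesive protein of periosteum, tendon and other collagen-rich tissue that bears load. Its 3 probes nearest to the 3′ end, whose positions start within 287 genomic bases of each other, gave like values. Probe 1 (chr3:54194483-54194542, mm9, plus strand) read 4.70, 4.93 and 4.81 on the KO arrays, against 4.47, 5.13 and 5.06 on the WT arrays. The KO arrays lay between WT replicate 1, the lowest, and the other WT arrays. The differences of probes 1, 2 and 3 were -0.07, -0.09 and -0.10 (SE 0.17 to 0.18; limma adjusted p from 0.850 to 0.894). The interval of probe 1 ran from -0.51 to 0.36. Without WT replicate 2 or without the 2 arrays with Xist signal, the sign of all 3 was positive. Probe 4 lies 5908 genomic bases upstream (chr3:54188575-54188634) and is listed for an Ensembl transcript and no RefSeq one. It read -2.31, -2.18 and -2.44 on the KO arrays, against -3.52, -2.58 and -2.62 on the WT arrays. All KO values lay above all WT values, with a difference of 0.60 (SE 0.25, 95% interval -0.01 to 1.20; limma adjusted p = 0.326). WT replicate 1 lay farthest from the rest, and without it the difference was 0.29. With normexp and quantile normalization the difference was 0.40. Whether the shift of dim probes given for Smoc1 has a part in this value was not tested.

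Of the thrombospondins, calcium-binding glycoproteins that signal through CD36, CD47 and integrins, Thbs2 was lower in KO, Thbs1 close to WT and Thbs4 not above background. Thbs2, whose loss in mice is known to disturb collagen fibrils, read 2.56, 2.85 and 3.08 on the KO arrays, against 3.30, 3.34 and 3.11 on the WT arrays. The groups did not overlap, but KO replicate 3 and WT replicate 3 were nearly level. The difference was -0.42 (SE 0.15, 95% interval -0.77 to -0.07), a signal 1.34-fold lower in KO that did not pass (limma adjusted p = 0.253). It ranged from -0.54 without KO replicate 3 to -0.28 without KO replicate 1. Thbs1, an activator of latent TGF-beta that macrophages and platelets also release, read 5.33, 5.17 and 5.38 on the KO arrays by probe 1, against 5.23, 5.49 and 5.48 on the WT arrays. The groups overlapped by this probe. Probe 2, 1623 bases upstream, read 2.53, 2.62 and 2.671 on the KO arrays, against 2.87, 2.672 and 2.70 on the WT arrays. Its groups touched without overlapping. The differences were -0.11 (95% interval -0.36 to 0.14; limma adjusted p = 0.687) and -0.14 (95% interval -0.35 to 0.07; limma adjusted p = 0.508). Thbs4, a thrombospondin of tendon and muscle, had no array well above background (-6.33, -6.21 and -5.84 on the KO arrays, against -5.58, -4.63 and -5.12 on the WT arrays), and no fold is given.

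Of the tenascins, large oligomeric proteins that weaken cell attachment to fibronectin, Tnn was lower in KO on average through 2 of its 3 arrays, and Tnc was not. Tnn encodes tenascin-W, which is made in periosteum and by osteoblast precursors. Probe 2 (chr1:162015185-162015244, mm9, minus strand) read 4.48, 3.31 and 3.93 on the KO arrays, against 4.47, 4.36 and 4.38 on the WT arrays. KO replicate 1 was level with the highest WT array while KO replicate 2 lay more than 1 log2 unit below the lowest. The KO arrays thus had an SD of 0.58, against 0.06 for the WT arrays. Probe 1, which lies beside it and is no independent reading of another part of the gene, read 1.91, 0.80 and 1.47 on the KO arrays, against 1.88, 1.98 and 1.75 on the WT arrays. The differences were -0.49 (SE 0.27; limma adjusted p = 0.445) for probe 2 and -0.48 (SE 0.26; limma adjusted p = 0.448) for probe 1. Leaving out KO replicate 2 gave -0.20 for probe 2, and leaving out KO replicate 1 gave -0.78, so each of these arrays moves its size by over 1.5 times.

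Tnc encodes tenascin-C, which appears around condensing bone and in wounds. It read 1.41, 2.20 and 2.15 on the KO arrays by probe 1, against 1.37, 2.42 and 1.84 on the WT arrays. By probe 2, the junction-spanning oligonucleotide 53429 genomic bases upstream, it read -0.53, 0.53 and 0.06 on the KO arrays, against -0.24, 0.34 and 0.12 on the WT arrays. The groups overlapped fully, and replicate 1 was lowest in each group by both probes. The differences were 0.04 (95% interval -0.71 to 0.79; limma adjusted p = 0.968) and -0.06 (95% interval -0.73 to 0.61; limma adjusted p = 0.948). These intervals are wide, and they hold a change of 1.5-fold in either direction.

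Fn1 was measured at 4 places, and its 2 junction-spanning probes were the lower ones. Probe 2 read 2.77, 2.89 and 2.72 on the KO arrays, against 3.17, 3.21 and 3.40 on the WT arrays. All KO values lay well below all WT values, with SDs of 0.09 in KO and 0.12 in WT. The difference was -0.47 (SE 0.09, 95% interval -0.69 to -0.24), a signal 1.38-fold lower in KO, and it missed the threshold (limma adjusted p = 0.0991). Under other settings, its limma adjusted p ran from 0.0512 with a variance trend to 0.324 without the 2 arrays with Xist signal. Probe 4, in the 5′ part of the gene, read 0.26, 0.73 and 0.40 on the KO arrays, against 0.94, 0.77 and 0.75 on the WT arrays. The groups did not overlap, though KO replicate 2 nearly reached the WT arrays (difference -0.35, SE 0.13, 95% interval -0.67 to -0.03; limma adjusted p = 0.282). Probe 1, at the 3′ end (chr1:71632116-71632175, mm9), read 6.73, 6.84 and 7.001 on the KO arrays, against 6.85, 7.12 and 7.21 on the WT arrays. These groups overlapped, with a difference of -0.20 (SE 0.12, 95% interval -0.49 to 0.10; limma adjusted p = 0.504). Probe 3, listed for an Ensembl transcript and no RefSeq one, read -0.47, 0.21 and 0.09 on the KO arrays, against -0.51, -0.02 and -0.09 on the WT arrays. It overlapped too (difference 0.15, SE 0.21; limma adjusted p = 0.795). The 3 probes listed for RefSeq transcripts thus all read lower in KO on average, by 1.15-fold to 1.38-fold, and none passed.

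A ratio of 2 probes on the same array is free of the scaling between arrays. It is free of a level that the whole gene shares only where both probes rise in proportion to the RNA. That was not tested, and Sparc probe 1 is among the brightest probes and Postn probe 4 near background. Sparc probe 2 minus probe 1 was -1.81, -2.05 and -1.71 on the KO arrays, against -1.11, -1.12 and -1.16 on the WT arrays. The groups lay far apart, with a difference of -0.72, against SDs of 0.18 in KO and 0.03 in WT. An exact two-sided permutation test gave p = 0.1, the smallest that 3 arrays against 3 allow, and the ratio was looked at after the probes had been seen to disagree. It was between -0.80 and -0.62 under all alternatives. For Postn, probe 4 minus probe 1 was -7.02, -7.10 and -7.26 on the KO arrays, against -7.99, -7.71 and -7.68 on the WT arrays. The KO ratios were again all on the same side, by 0.67 (exact two-sided permutation p = 0.1). For Fn1, probe 2 minus probe 1 was lower in KO by a smaller margin (difference -0.27; exact two-sided permutation p = 0.1), and the ratios of probes 3 and 4 to probe 1 overlapped between groups. Ratios of the other probe pairs of Thbs1, Tnc, Tnn and Postn differed by 0.10 or less between groups, less than their spread or close to it.

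**Figure D3:**
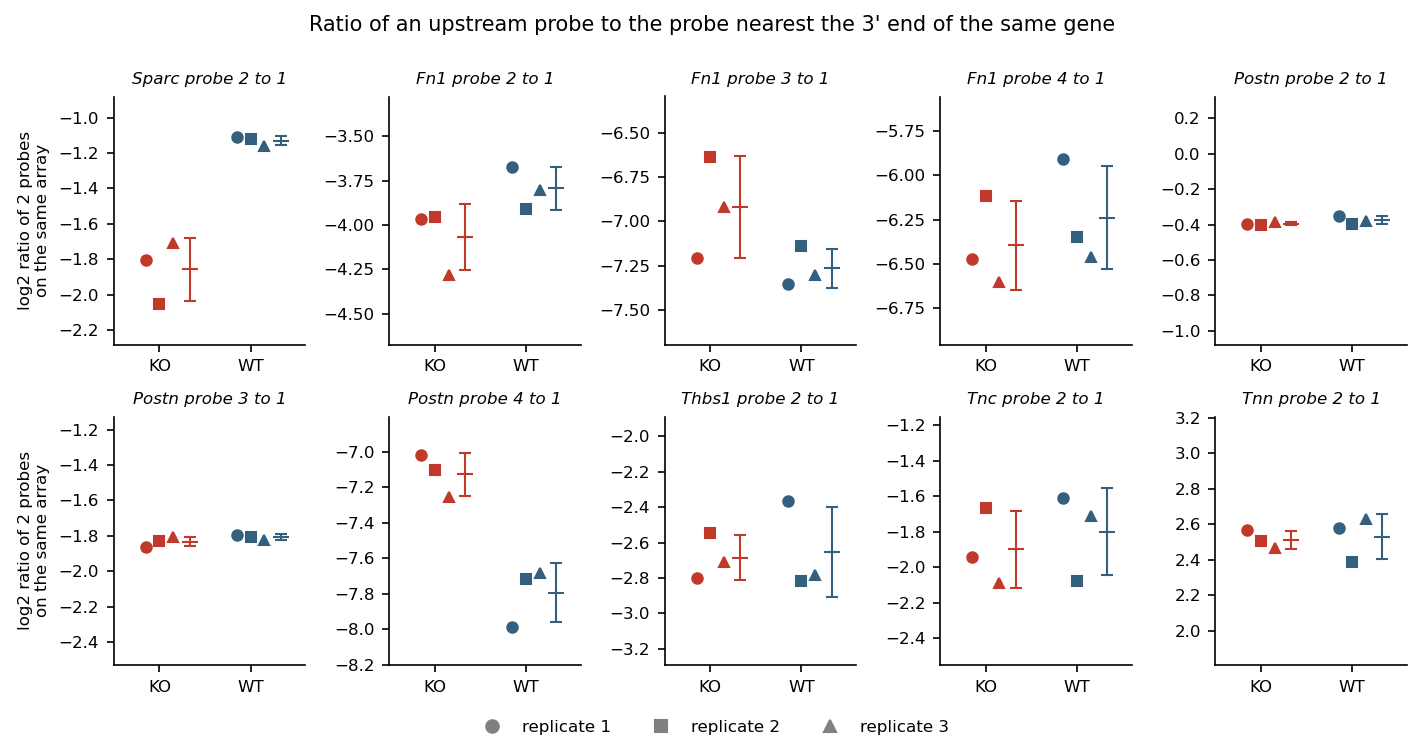
Log2 ratio of an upstream probe to probe 1 of the same gene on the same array (y axis) for 10 probe pairs, on KO (red, left) and WT arrays (blue, right), with mean and SD beside the points. Each panel spans 1.4 log2 units. The Sparc ratios lie between -2.05 and -1.71 in KO and between -1.16 and -1.11 in WT, while the ratios of Postn probes 2 and 3, Tnc and Tnn overlap.

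Disagreement of this size between probes of a gene was uncommon but not particular to these genes. Among 6276 genes with at least 2 tested probes, the log2 differences of a gene's probes spanned a median of 0.15. A span at least as large as that of Sparc (0.72) was found in 3.52% of them, as large as that of Postn (0.69) in 4.06% and as large as that of Fn1 (0.62) in 5.53%. Postn and Fn1 have 4 tested probes each. A span can only grow with more probes, and these shares were not matched for probe number. The highest value in both of these spans came from a probe listed for no RefSeq transcript. The spans of Tnc (0.10), Thbs1 (0.03) and Tnn (0.02) lay below the median. Over 5038 genes with probes at least 1000 genomic bases apart, which leaves out the Sparc pair, the median KO minus WT difference of the upstream probe relative to the 3′ probe was 0.03. The centred medians of single arrays overlapped, at 0.06, 0.0042 and -0.04 on the KO arrays, against 0.0055, -0.07 and 0.0038 on the WT arrays. The part of RNA quality in the ratios was not tested.

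Among the other matricellular genes listed for comparison, 20 of 25 were tested and none passed limma over all probes (0.0781% of 15371 genes passed by their brightest probe). At an unadjusted limma p under 0.05, 4 were lower and 2 higher in KO, against 8.03% and 6.94% of all genes, and the list's median difference was -0.04, against 0.02 over all genes. Comp, a thrombospondin of cartilage and tendon, averaged -2.52 ± 0.48 in KO and -1.27 ± 0.31 in WT (SD, n = 3 each; difference -1.26, limma adjusted p = 0.110). Smoc2, the close relative of Smoc1, went the other way from it and averaged 1.89 ± 0.18 in KO and 2.47 ± 0.17 in WT (SD, n = 3 each; difference -0.58, limma adjusted p = 0.122), with -0.45 and -0.13 by its other probes. Ccn4, a Wnt-responsive protein of osteoblasts, had a difference of -0.76 (limma adjusted p = 0.179), with -1.12 by a second probe. Tnxb, a tenascin of loose connective tissue and 1 of the 4 lower genes, had no KO array well above background. It was tested only because all its WT arrays were, which favours a lower KO value. Its mean WT signal was at least 1.16-fold its mean KO signal (adjusted p = 0.281 with limma), a bound that leaves out the spread between arrays. WT replicate 2 (-4.09) and KO replicate 3 (-4.13) were nearly level. The 2 higher ones were small in size: Spp1, which encodes osteopontin, by 0.25 (limma adjusted p = 0.259), and Tgfbi, a relative of periostin, by 0.24 (limma adjusted p = 0.256).

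Of the receptors of these proteins, none of the 17 tested passed. At an unadjusted limma p under 0.05, 1 was lower and 1 higher by their brightest probes, against 8.03% and 6.94% of all genes. The median difference of the receptors was 0.01, and 7 of the 17 were negative, as 44.2% of all genes were. Itgb1, the common integrin subunit of fibronectin receptors, averaged 5.41 ± 0.17 in KO and 5.49 ± 0.10 in WT (SD, n = 3 each), and Itga5, its partner for fibronectin, 0.20 ± 0.18 and 0.18 ± 0.33. By a dimmer probe, Itgav, an integrin subunit of vitronectin receptors, had 0.76 and the syndecan Sdc1 -0.41, against 0.12 and 0.05 by their brightest probes. Their remaining tested probes had 0.10 and -0.04, near the brightest ones. Ptprz1, a phosphatase that binds tenascins, averaged 1.02 ± 0.64 in KO and 2.91 ± 0.49 in WT (difference -1.89, SE 0.37; limma adjusted p = 0.0946). Cd36, the receptor of thrombospondins that also takes up fatty acids, averaged 4.26 ± 0.12 in KO and 3.59 ± 0.21 in WT (difference 0.67, SE 0.13; limma adjusted p = 0.0926). Macrophages also carry it, and their markers had a median difference of 0.12. Itga8 and Itgb5, subunits of integrins that bind fibronectin and vitronectin, differed by 0.18 and -0.11 (limma adjusted p = 0.454 and 0.511).

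Of 14 collagens, fibrillar proteins and enzymes that bind or process these proteins, none passed limma over all probes. At an unadjusted limma p under 0.05, 7 were lower and 1 higher in KO, against 8.03% and 6.94% of all genes, and the median difference was -0.41. Mmp2, a gelatinase, averaged 2.67 ± 0.19 in KO and 3.45 ± 0.08 in WT (difference -0.78; limma adjusted p = 0.0691). Col1a1, a chain of type I collagen, had -0.90 by its brightest probe (limma adjusted p = 0.141) but -0.21 and -0.14 by its other probes, so that this gene's probes differed from each other too. Mmp14, a membrane-bound collagenase, had -0.34 (limma adjusted p = 0.153). Bmp1, the procollagen proteinase that periostin helps to anchor on fibronectin, had a difference of -0.56 (limma adjusted p = 0.178), Lox, the collagen cross-linking oxidase, -0.48 (limma adjusted p = 0.179), and Col5a1 -0.75 (limma adjusted p = 0.123). Not all matrix genes of the list had negative differences: Col3a1 had 0.14, with 0.47 and 0.51 by its other probes, Col12a1 0.27 and Fbn1 (fibrillin-1) 0.09. The 1 higher gene was Adamts1, a protease that cleaves thrombospondins (0.31, limma adjusted p = 0.230). TGF-beta induces many of the proteins described here, and of 14 genes of its axis tested none passed, with a median of 0.04 and 1, Smad2, higher at an unadjusted limma p under 0.05, against 6.94% of all genes. Smad2 had 0.17 by its brightest probe and -0.08 by its other probe. Smad3, which passes the signal on to the nucleus, had -0.27 (limma adjusted p = 0.341), with -0.36 by its other probe. Smad7, an inhibitor of the pathway, had -0.20 (limma adjusted p = 0.438), with -0.56 by its other probe.

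**Figure D4:**
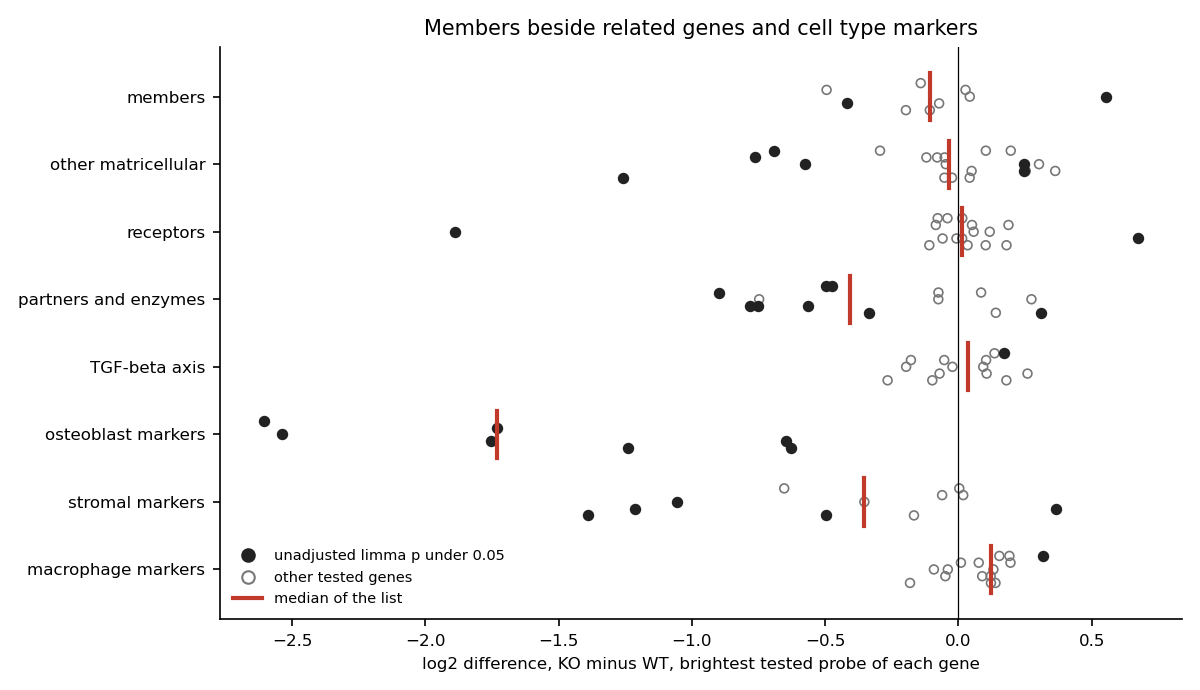
Log2 difference, KO minus WT, of each tested gene by its brightest probe (x axis), for the members, for related lists and for cell type markers (y axis). Filled points have an unadjusted limma p under 0.05 and red bars are list medians, from -1.73 for osteoblast markers to 0.12 for macrophage markers. Tnxb and Lum (stromal markers) are drawn at their measured values although neither was well above background on any KO array.

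Osteoblast markers had the lowest values among the cell type markers. All 7 osteoblast markers were lower in KO at an unadjusted limma p under 0.05 (median difference -1.73), against 8.03% of all genes. Of them 1, Ibsp, which encodes bone sialoprotein, passed, against 0.0781% of all genes (difference -1.73, limma adjusted p = 0.0496). That call depends on the setting, since no probe passed without a filter on dim probes, with a replicate block or with an Xist term. Phex had -2.61, Bglap (osteocalcin) -1.76 and the osteoblast factor Runx2 -1.24, with 0.07 by 1 of the other Runx2 probes (limma adjusted p from 0.0932 to 0.107 by the brightest probes). All 7 were well above background on every array, and their summed signal was 5.15 to 5.58 (log2) on the KO arrays, against 6.49 to 6.86 on the WT arrays. KO replicate 2 had the lowest sum, 5.15, and was also the lowest array for Sparc probe 2 and both Tnn probes. For Fn1 probes 2 and 4 it was instead the highest KO array, and for Thbs2 it lay between the other KO arrays. The 11 stromal markers had a median of -0.35, and 8 were negative. At an unadjusted limma p under 0.05, 4 were lower and 1 higher in KO, against 8.03% and 6.94% of all genes. Nt5e had -1.21, Dcn (the proteoglycan decorin) -1.05 and the chemokine Cxcl12 0.37. Pdgfrb, Lepr and Eng had 0.02, 0.003 and -0.06, with -1.03 by another Lepr probe. Thy1, Pdgfra and Vcam1 had -0.65, -0.35 and -0.17, with 0.30 by another Pdgfra probe. The summed signal of the stromal markers was 8.07 to 8.62 in KO and 8.82 to 8.91 in WT. Most of that sum was the single probe of Col1a2, also a gene of the collagen list, at 7.86 to 8.49 in KO and 8.68 to 8.81 in WT. The sum thus says little about the other stromal markers. Lum, the proteoglycan lumican, had no KO array well above background and was likewise tested only because all its WT arrays were. Its mean WT signal was at least 2.12-fold its mean KO signal (adjusted p = 0.217 with limma), a bound that leaves out the spread between arrays. For macrophage markers the median was 0.12 and the sum 10.2 to 10.3 in KO and 10.1 to 10.2 in WT. Of these 15 markers 11 were positive, and 1 was higher at an unadjusted limma p under 0.05, against 6.94% of all genes. Of the tendon markers, Scx had -1.11 (limma adjusted p = 0.0887), Mkx had -0.07, and Tnmd had no array well above background. The medians of the endothelial and smooth muscle markers were 0.01 and 0.08 over 4 tested genes each, and Pf4, the 1 platelet gene tested, had 0.26. The part that any of these markers has in the values of Sparc, Thbs2, Tnn or Fn1 was not tested.

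RefSeq's promoter table (GRCm38.p6) held 8 entries for 6 of the 10 genes, Postn and Tnc with 2 entries each. The 250 bases before each start were searched on both strands for RUNX (TGTGGT), AP-1 (TGANTCA), TEAD (GGAATG), the SMAD palindrome (GTCTAGAC), the CArG box by name and the TATA box (TATAAA), which can lie inside a CArG box. No entry held the RUNX, AP-1, SMAD or CArG letters, which 14.05%, 6.75%, 0.167% and 1.47% of all 32851 promoters of this length held. The TEAD letters were in the entries of Tnn and Thbs4, and in 12.6% of all. The TATA letters were in an entry of Postn, in both of Tnc and in that of Thbs2, and in 12.4% of all. The 2 Tnc entries overlap and hold the same occurrence. The Postn and Tnn stretches are printed with the matches in capitals, as the members that are best known as products of periosteum.
Postn, chr3:54360857-54361106, plus strand: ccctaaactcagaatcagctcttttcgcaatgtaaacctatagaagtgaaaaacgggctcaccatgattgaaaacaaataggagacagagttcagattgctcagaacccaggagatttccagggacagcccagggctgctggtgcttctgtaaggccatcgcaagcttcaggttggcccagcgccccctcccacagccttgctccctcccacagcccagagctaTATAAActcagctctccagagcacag
Tnn, chr1:160153576-160153825, minus strand: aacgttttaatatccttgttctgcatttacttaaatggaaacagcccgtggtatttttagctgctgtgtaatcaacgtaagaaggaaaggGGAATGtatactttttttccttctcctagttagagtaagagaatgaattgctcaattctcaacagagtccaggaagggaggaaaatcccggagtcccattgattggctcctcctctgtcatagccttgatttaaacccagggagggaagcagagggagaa
Counted from the start site, the TATA letters of Postn begin at -26 and the TEAD letters of Tnn at -160. A match describes the letters and not a bound site.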

How the data were processed

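The authors deposited 1 scanner file per array with intensity values for 62976 spots, extracted with Agilent Feature Extraction 10.7.1.1 per the file headers (version 9.1 per the submitters' processing notes), and a series table of log2 values whose steps are not given in the sources used here. The deposited log2 columns followed their own arrays (r of at least 0.9999) and shared the same sorted values to within 0.0028, with a median of 6.15 in every column. The description and extraction fields of the labels speak of human blood, and titles, source names and organism were followed.

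From each processed signal, on the log2 scale, the 75th percentile of its array's non-control probes was subtracted. Outlier spots (49 to 131 per array) were left out and spots of a probe averaged. A probe was tested with at least 2 values per group if well above background on all arrays of at least 1 group (for several spots, on a share of 0.5 of them). Tests were two-sided with limma 3.58.1 under R 4.3.3 (moderated by eBayes, with 4 residual and 2.65 prior degrees of freedom), Benjamini-Hochberg adjusted over 28606 probes. In simulated data for KO against WT with 28606 probes, 187 of 200 probes changed by 1 (log2) were recovered with 6 false calls, and 196 of 200 changed by 2 with 13 false calls. The simulated noise was independent and normal, with each probe's moderated variance, so these counts do not measure the power in the real data. There, differences of -2.61 (Phex) and -1.89 (Ptprz1) did not pass. Gene lists use each gene's brightest tested probe, named through RefSeq accessions, symbols or synonyms. The lower bounds given for Tnxb and Lum set the WT mean against the KO mean of the probe's own signal or, where higher, the dimmest signal that was well above background on that array. Members and lists were chosen with earlier results of these data known. Every probe of the members is described. From each other list, genes past the threshold and up to 4 with the smallest unadjusted p were to be named, of which 1 is not reported here, and Spp1, Tnxb, Itga5, Itgav, Sdc1, Bmp1, Lox, Adamts1, Col3a1, Col12a1 and Fbn1 were chosen after their values were seen. No protein sequences were used here.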

Additional observations from a re-analysis of the deposited data

How the results depend on the processing

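No member probe passed at an adjusted p of 0.05 under any of the 16 alternatives. The count of all probes that passed was 17, against 215 under normexp and quantile normalization, 220 under a variance trend, 101 under median centring, 9 over probes detected on all 6 arrays, 2 under a robust variance, and 0 without a filter on dim probes (18002 at an unadjusted limma p under 0.05), with the replicate block (4647 at that p) or with an Xist term (4616 at that p). Leaving out 1 array gave 2 to 31. Deviations of same-numbered arrays from their group means correlated with r = 0.06, 0.15 and -0.03, so the numbers were not taken as pairs, and KO replicate 1 correlated best with WT replicate 3. All 6 arrays shared 1 slide and scan, so no slide block could be fitted.

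Signs of small differences turned when 1 array was left out. Over these 6 fits, Postn probe 1 ran from -0.280 to 0.0497, Postn probe 2 from -0.288 to 0.0207, Postn probe 3 from -0.298 to 0.0270, Sparc probe 1 from -0.0531 to 0.120, Sparcl1 from -0.403 to 0.163, Tnc probe 1 from -0.209 to 0.315, Tnc probe 2 from -0.314 to 0.218 and Fn1 probe 3 from -0.0021 to 0.356. Postn probes 1 to 3 were lowest without WT replicate 1 and positive without WT replicate 2, and Sparcl1 was positive without KO replicate 1. Without both arrays with Xist signal, Postn probes 1 to 3 had 0.0687, 0.0473 and 0.0503, Sparc probe 1 -0.0050 and Tnc probe 2 0.243. Sparc probe 1 had -0.0619 under normexp and quantile normalization, -0.00084 under median centring and -0.0078 in the deposited table. The cause of these shifts was not tested. Sparc probe 2, Smoc1, Thbs1, Thbs2, Tnn, Postn probe 4 and Fn1 probes 1, 2 and 4 kept their sign under all 16.

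The ratio of Postn probe 4 to probe 1 differed by 0.50 with normexp and quantile normalization. The median of collagens and enzymes was -0.32 with that normalization, -0.27 without the arrays with Xist signal and -0.45 to -0.29 with 1 array left out. That of other matricellular genes was -0.0732 to 0.0743 and that of receptors 0.00086 to 0.0833 with 1 array left out. Signals near background limit Sparcl1, Smoc1 and Postn probe 4.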

Other observations

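Arrays with the same replicate number shared a low reading for several members. Replicate 1 was the lowest array of both groups for 8 of the 19 tested probes (Postn probes 1 to 3, both Tnc probes, Smoc1, and Fn1 probes 1 and 3), as it was for 16.1% of all tested probes. Replicate 2 was the lowest of both groups for 3, both Sparc probes and Tnn probe 2, as for 16.6% of all, and replicate 3 for 0, as for 9.18% of all. Same-numbered arrays also lay in the same column of the slide. For osteoblast markers, replicate 2 had the lowest sum in KO (5.15) and the highest in WT (6.86).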
